A study of Mus musculus with 13 samples.

Results

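The genes described here are 40 named neighbours of Apoe on mouse chromosome 7, chosen by name and position and not by their expression. All 40 were among the 20971 genes of the table, and 38 of them lay within 1 Mb of Apoe in the mm10 assembly. Zfp180 and Zfp112 were the exceptions, at 4.38 and 4.41 Mb. Of the 40 genes, 26 reached a mean of 0.5 RPKM (reads scaled by gene length and by the mapped reads of the library) over all libraries and were tested; the other 14 were weaker and are described separately. In each of the 26 both group means were at or above that limit, so none entered the test through 1 group alone.

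RNA was sequenced from the cortex of 6-month-old mice labelled C57BL/6, 6 with the genotype APPPS1 and 7 with the genotype APPPS1;Apoe-/-. By their labels both groups carry the APPPS1 transgenes, mutant human genes driven by the Thy1 promoter in neurons, which lead to amyloid plaques in the cortex, and only the second lacks functional Apoe. No group is labelled as free of the transgenes. Each library has a label of its own, but no label says in words that each is a separate mouse, so the p-values measure the spread between libraries.

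Apoe sits in a cluster of small apolipoprotein genes that is conserved in mammals, beside the mitochondrial import gene Tomm40 and the adhesion genes Nectin2 and Bcam. A targeted deletion leaves the neighbouring genes in place. It can still act on them through shared regulatory DNA, and a targeted chromosome keeps sequence of the strain in which it was made near the deletion. Any DNA inherited with the Apoe allele would follow the Apoe genotype in these libraries and was not measured, so the allele and that DNA cannot be told apart. The labels name C57BL/6 for both groups; for the strain of the targeted cells and the number of backcrosses the sources used here say nothing.

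Apoe averaged 581 ± 84.2 RPKM (SD, n = 6) in APPPS1 and 5.44 ± 0.888 RPKM (SD, n = 7) in APPPS1;Apoe-/- libraries, and the groups did not overlap. With 1716 ways to split the libraries, the exact permutation p (two-sided) was 0.000583, the minimum for this design. Libraries differed in depth, with 28402328 to 77005806 alignments in APPPS1 and 18455493 to 34538031 in APPPS1;Apoe-/-. In APPPS1;Apoe-/- replicates 2 and 5 App stood at 106 and 116 RPKM and Thy1 at 52.2 and 56.9 RPKM, against 176 to 217 and 172 to 245 RPKM in the other 11 libraries. The levels of these 2 libraries go against their label as carriers of the transgenes, so the results are also given without these 2 libraries and in a model that takes log2 alignments as a covariate. Differences below are APPPS1;Apoe-/- minus APPPS1 in log2(RPKM + 0.5), a scale that understates the change of weak genes, and adjusted p-values come from limma over all 13343 genes tested.

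Of the 26 tested neighbours, 3 were lower without Apoe (Dmwd, Fbxo46 and Ercc2), 2 were higher (Trappc6a and Zfp296) and 21 did not pass the test. The 5 called genes make up 19.2% of the neighbours tested, against 8.23% of all genes tested. By direction, 11.5% were lower and 7.69% higher, against 4.74% and 3.48% of all genes. The called genes were interspersed with uncalled ones, between 115 and 613 kb from Apoe, and lay at lower coordinates than Apoe, as do 22 of the 26 tested neighbours. None was next to Apoe. The median difference of the 26 genes was -0.065, against -0.0077 for all genes, and their median absolute difference was 0.14, against 0.091. All 5 called genes lie on the plus strand, as do 16 of the 26 tested neighbours.

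**Figure D1:**
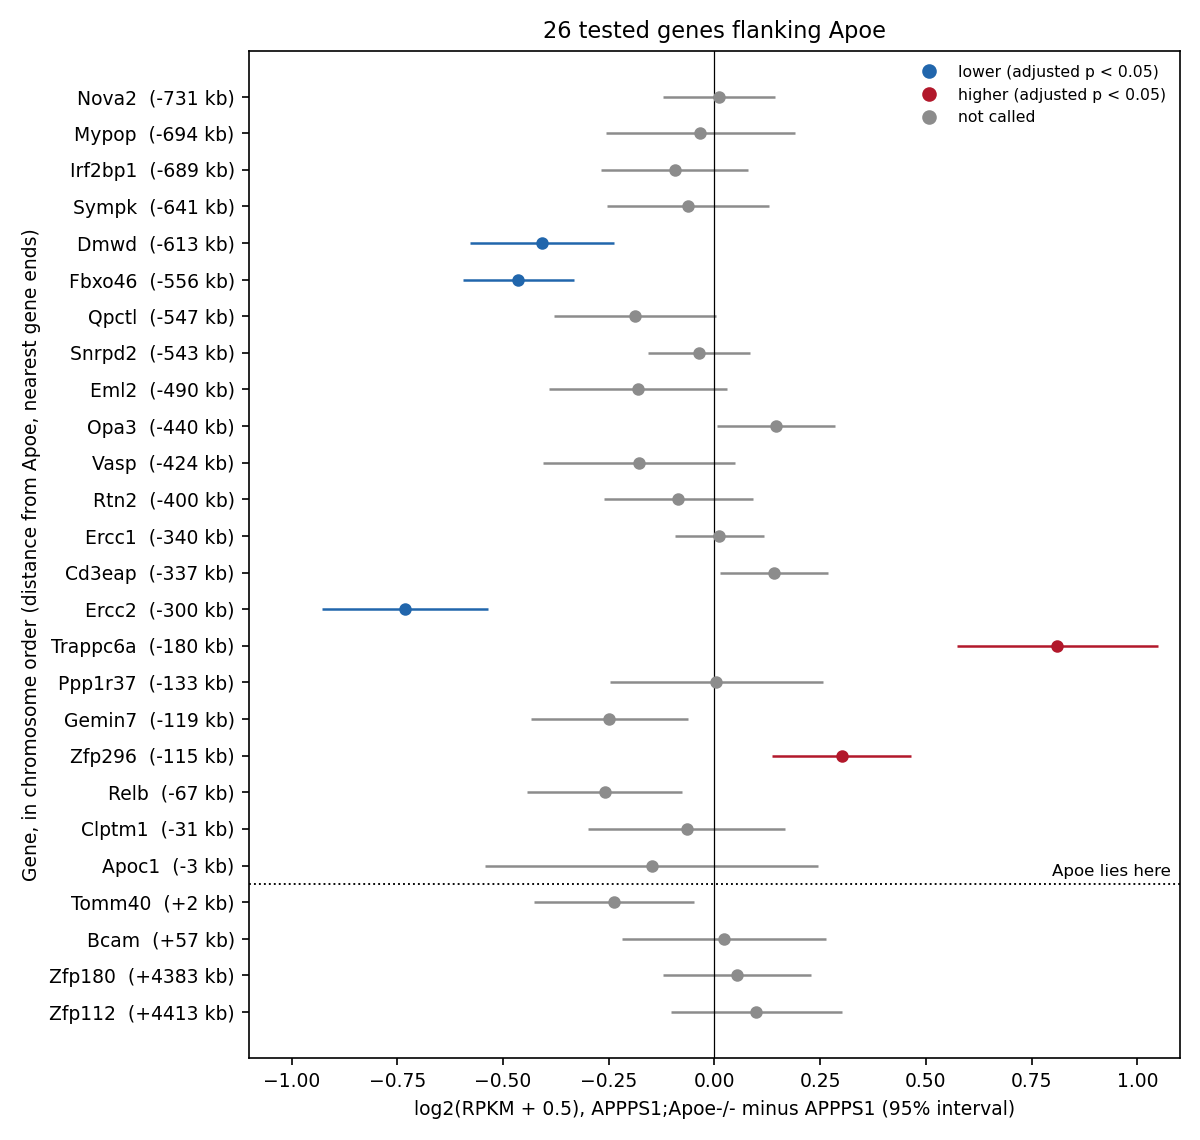
Difference in log2(RPKM + 0.5) between APPPS1;Apoe-/- (n = 7) and APPPS1 (n = 6) libraries (horizontal axis; points with 95% intervals from limma) for the 26 tested neighbours, in chromosome order with their distance from Apoe in kb. Ercc2, Fbxo46 and Dmwd lie to the left and Trappc6a and Zfp296 to the right of 0, while Apoc1 and Tomm40, on either side of Apoe, were not called.

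The upstream sequences of the 5 called genes are shown because these are the neighbours whose RNA differed. Each is the 250 bases before the start of the gene in RefSeq (GRCm38.p6), which held an entry for 34 of the 40 genes. They are the reference sequence of C57BL/6J, not that of the mice studied. RefSeq and GENCODE differ in the start of some genes: all 250 bases shown for Trappc6a and the last 7 shown for Ercc2 lie inside the gene as GENCODE draws it. All 250 bases shown for Zfp296 lie inside another gene in GENCODE, Gemin7, which is on the minus strand. Capitals mark exact matches, on either strand, to any of 5 short motifs, the GC box, the CCAAT box, the TATA box, the Ets core and TGACG, a part of the CRE.
Dmwd, plus strand, chr7:19075950-19076199: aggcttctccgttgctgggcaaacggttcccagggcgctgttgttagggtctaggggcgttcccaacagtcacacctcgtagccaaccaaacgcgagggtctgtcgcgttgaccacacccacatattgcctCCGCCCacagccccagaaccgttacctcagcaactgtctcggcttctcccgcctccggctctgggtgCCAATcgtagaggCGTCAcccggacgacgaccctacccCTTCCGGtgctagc
Fbxo46, plus strand, chr7:19119609-19119858: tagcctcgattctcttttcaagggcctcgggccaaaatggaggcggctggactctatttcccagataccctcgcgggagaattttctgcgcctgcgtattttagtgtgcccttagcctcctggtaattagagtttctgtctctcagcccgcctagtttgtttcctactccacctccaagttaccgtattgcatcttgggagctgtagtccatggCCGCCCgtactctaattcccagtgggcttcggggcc
Ercc2, plus strand, chr7:19381767-19382016: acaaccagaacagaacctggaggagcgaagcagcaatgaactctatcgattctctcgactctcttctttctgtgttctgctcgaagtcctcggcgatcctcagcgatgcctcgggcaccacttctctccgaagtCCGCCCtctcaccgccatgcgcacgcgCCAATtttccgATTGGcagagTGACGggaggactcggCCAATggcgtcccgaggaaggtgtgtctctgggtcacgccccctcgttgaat
Trappc6a, plus strand, chr7:19508420-19508669: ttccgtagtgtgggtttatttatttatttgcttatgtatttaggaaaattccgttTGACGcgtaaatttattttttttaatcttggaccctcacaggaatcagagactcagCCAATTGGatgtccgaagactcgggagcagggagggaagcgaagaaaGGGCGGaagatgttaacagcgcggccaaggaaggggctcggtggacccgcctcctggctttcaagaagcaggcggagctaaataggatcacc
Zfp296, plus strand, chr7:19577037-19577286: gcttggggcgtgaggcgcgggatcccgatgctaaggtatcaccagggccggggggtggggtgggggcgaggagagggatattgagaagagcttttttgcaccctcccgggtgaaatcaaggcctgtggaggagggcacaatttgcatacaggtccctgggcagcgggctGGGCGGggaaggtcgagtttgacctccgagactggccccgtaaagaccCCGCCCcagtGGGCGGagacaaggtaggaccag

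The GC box, GGGCGG, was present upstream of each of the 5 genes, 3 times for Zfp296 and once for each of the others. Such a match occurred in 32.7% of the 32851 windows of the same length before all RefSeq starts. The letters CCAAT occurred 3 times before Ercc2, 2 times before Trappc6a, where the matches on the 2 strands overlap, and once before Dmwd, and in 33.8% of all windows. The letters TGACG, which are only a part of the cAMP response element (CRE), were found before Dmwd, Ercc2 and Trappc6a and in 17.8% of all windows. The Ets core, with the letters CCGGAAG, was found before Dmwd alone of the 5 and in 6.91% of all windows. None of the 5 windows held the TATA box, TATAAA, found in 12.4% of all. The windows held 12 to 21 CpG dinucleotides, against a median of 6 over all windows. These matches describe the letters of the reference windows, and no motif set the lower genes apart from the higher ones. Matches before the uncalled neighbours are not given here, so none can be read as particular to the called genes.

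Among the 26 tested neighbours Ercc2 had the lowest log2 difference. It encodes XPD, the helicase of transcription factor TFIIH that opens DNA in transcription and in nucleotide excision repair, and lies on the plus strand at chr7:19382010-19395694 of mm10, 300.4 kb from Apoe. The 6 APPPS1 libraries ran from 1.12 to 1.71 RPKM with a median of 1.47, and the 7 APPPS1;Apoe-/- libraries from 0.484 to 0.905 RPKM with a median of 0.632. Every knockout library thus lay below every APPPS1 library. The means were 1.43 ± 0.216 RPKM (SD, n = 6) and 0.662 ± 0.135 RPKM (SD, n = 7), a fall to 46.3%. The log2 difference was -0.73 ± 0.09 (SE; adjusted p = 2.37e-04). The 3′ end of Ercc2 overlaps by 1258 bases that of Klc3, a kinesin light chain gene on the other strand, and the sources used here do not say whether counting used strand, so reads of the shared part cannot be told apart. Klc3 itself was weak, between 0.0901 and 0.140 RPKM in APPPS1 libraries and at most 0.0775 RPKM in the others.

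Fbxo46, which encodes an F-box protein of the kind that recruits substrates to ubiquitin ligases, fell in the knockout libraries. It lies on the plus strand at chr7:19119859-19140172, 555.9 kb from Apoe. APPPS1 libraries ran from 3.76 to 4.46 RPKM (median 4.18) and APPPS1;Apoe-/- libraries from 2.60 to 3.36 RPKM (median 2.86), without overlap. The means were 4.15 ± 0.280 and 2.88 ± 0.257 RPKM (SD, n = 6 and n = 7). The log2 difference was -0.46 ± 0.06 (SE; adjusted p = 3.50e-04). Its last 471 bases overlap the 3′ end of Qpctl, which encodes a Golgi glutaminyl cyclase and was at 8.86 ± 1.06 and 7.73 ± 0.996 RPKM without passing the test (adjusted p = 0.212).

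Dmwd, a WD-repeat gene beside the myotonic dystrophy kinase gene Dmpk, also fell. It lies on the plus strand at chr7:19076227-19082776, 613.3 kb from Apoe, and was the most highly expressed of the 5 called genes. APPPS1 libraries ran from 12.2 to 13.7 RPKM (median 12.8) and APPPS1;Apoe-/- libraries from 7.23 to 11.2 RPKM (median 9.75), again without overlap. The means were 12.8 ± 0.533 and 9.63 ± 1.38 RPKM (SD, n = 6 and n = 7), a fall to 75.0%. The log2 difference was -0.41 ± 0.08 (SE; adjusted p = 0.00589). The spread was wider among the knockout libraries, where replicate 3 was lowest at 7.23 RPKM and replicates 4 and 5 were highest at 11.2 and 11.1 RPKM.

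Among the 26 tested neighbours Trappc6a had the highest log2 difference. It encodes a subunit of the TRAPP complexes, which tether vesicles on their way to and through the Golgi, and lies on the plus strand at chr7:19508395-19516145, 180.0 kb from Apoe. APPPS1 libraries ran from 4.26 to 5.99 RPKM (median 5.12) and APPPS1;Apoe-/- libraries from 6.63 to 10.9 RPKM (median 10.4). The groups did not overlap. The means were 5.08 ± 0.654 and 9.36 ± 1.72 RPKM (SD, n = 6 and n = 7), 1.84-fold higher without Apoe. The log2 difference was 0.81 ± 0.11 (SE; adjusted p = 4.72e-04). The knockout libraries were spread unevenly: replicates 2 and 3 stood at 7.54 and 6.63 RPKM, whereas the other 5 ran from 8.82 to 10.9 RPKM.

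Zfp296, a zinc finger gene known from pluripotent cells and here near 1 RPKM, rose by less. It lies on the plus strand at chr7:19577287-19580656, 115.5 kb from Apoe. APPPS1 libraries ran from 0.860 to 1.22 RPKM (median 1.05) and APPPS1;Apoe-/- libraries from 1.23 to 1.83 RPKM (median 1.34), so that the groups came close without overlapping. The means were 1.04 ± 0.119 and 1.41 ± 0.197 RPKM (SD, n = 6 and n = 7), and the log2 difference was 0.30 ± 0.08 (SE; adjusted p = 0.0263). This call depended on the libraries and the model: without APPPS1 replicate 1 or replicate 6 it was 0.26 and 0.29 (adjusted p = 0.0627 and 0.0584), and with the alignments covariate 0.32 (adjusted p = 0.128). Its start overlaps by 309 bases, head to head, the start of Gemin7, so reads there cannot be told apart without strand. Gemin7, a subunit of the SMN complex that assembles spliceosomal particles, ran from 22.5 to 30.3 RPKM in APPPS1 and from 17.8 to 25.7 RPKM in APPPS1;Apoe-/- libraries. Its means of 26.2 ± 3.20 and 22.0 ± 2.70 RPKM gave a log2 difference of -0.25, opposite in sign to that of Zfp296 and short of the threshold (adjusted p = 0.0921).

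**Figure D2:**
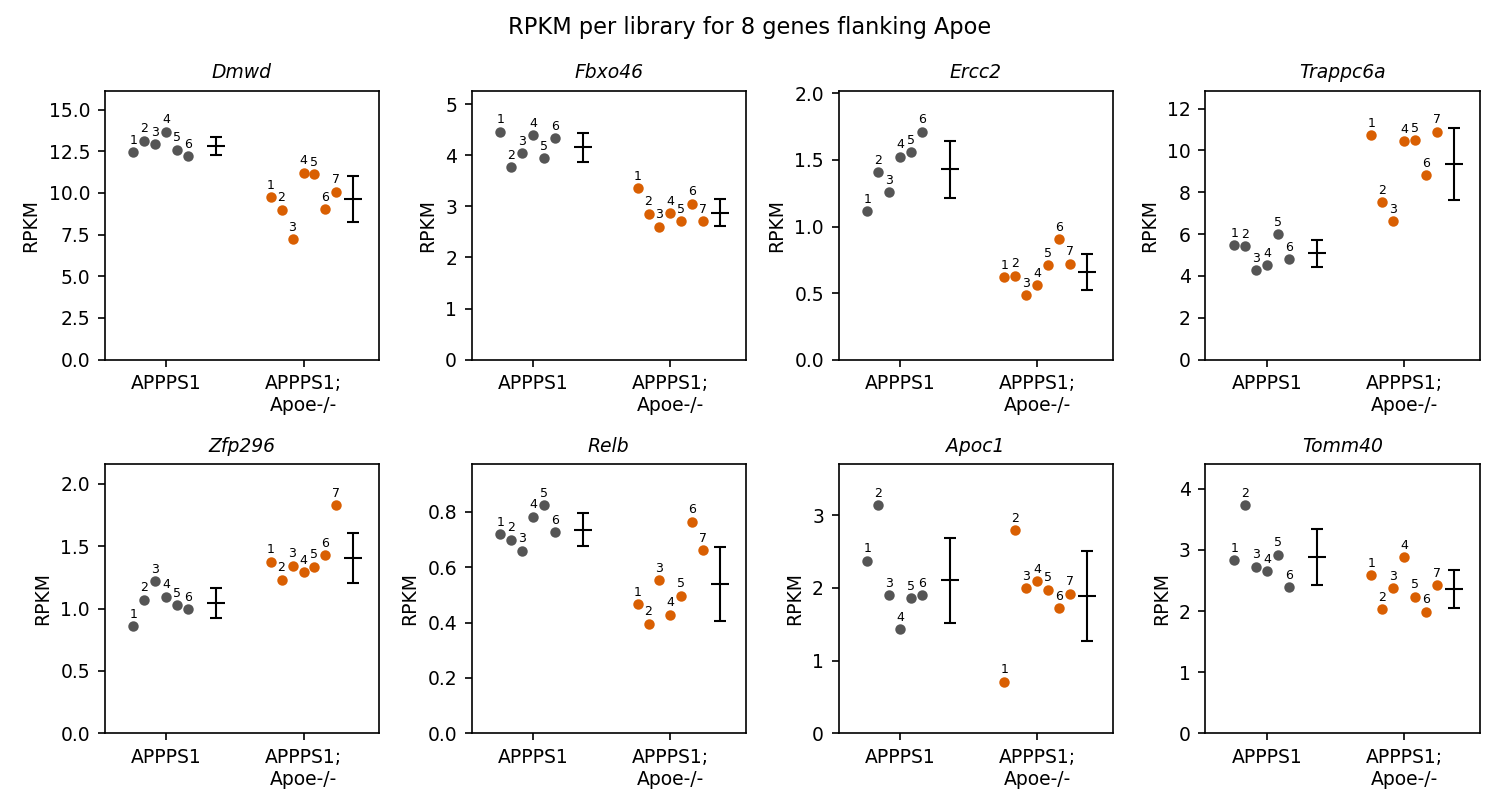
RPKM per library (points, with the replicate number) of the 5 called neighbours and of Relb, Apoc1 and Tomm40, with APPPS1 (n = 6) on the left and APPPS1;Apoe-/- (n = 7) on the right of each panel; black marks show means with SD. The groups are apart in Dmwd, Fbxo46, Ercc2, Trappc6a and Zfp296 and overlap in Relb, Apoc1 and Tomm40.

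In the 5 called genes no library of one group reached the range of the other. Of all genes tested, 2.17% were lower and 1.54% higher in this way, against 3 and 2 of the 26 neighbours. Without APPPS1;Apoe-/- replicates 2 and 5 the count of neighbours was again 3 and 2, against 2.84% and 1.99% of all genes. Without those libraries the same 5 neighbours were called in limma, at log2 differences of -0.43 (Dmwd), -0.45 (Fbxo46), -0.74 (Ercc2), 0.83 (Trappc6a) and 0.34 (Zfp296), while 5.07% of all genes were called, 3.3% lower and 1.78% higher. With the alignments covariate over 13 libraries Dmwd, Fbxo46, Ercc2 and Trappc6a remained called (-0.48, -0.48, -0.90 and 0.66; adjusted p = 0.0323, 0.00956, 5.07e-04 and 0.0269), 4 of 26 neighbours beside 1.51% of all genes. By direction these were 3 lower beside 0.989% of all genes and 1 higher beside 0.525%. Both changes together left the same 4 genes called, 3 lower and 1 higher, beside 2.11% of all genes, 1.48% lower and 0.63% higher.

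**Figure D3:**
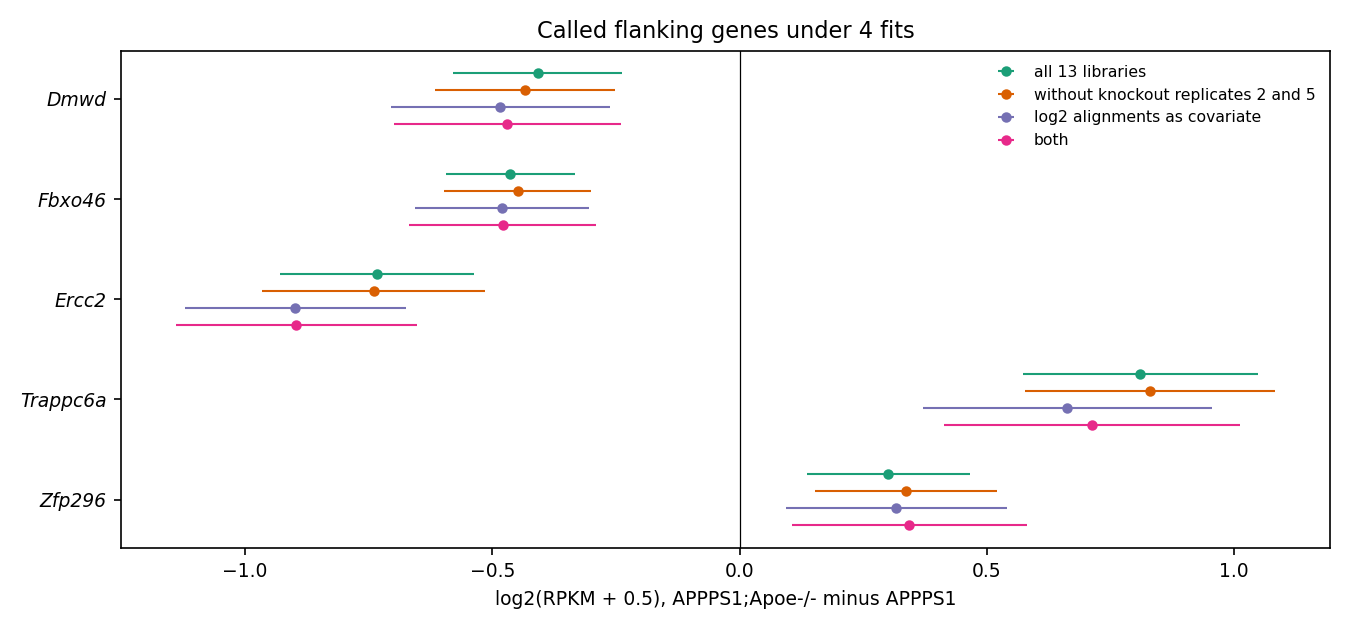
Log2 difference of the 5 called neighbours (points with 95% intervals; APPPS1;Apoe-/- minus APPPS1) with all 13 libraries, without APPPS1;Apoe-/- replicates 2 and 5, with log2 alignments as a covariate, and with both changes. Each gene keeps its sign in all 4 fits, from -0.90 for Ercc2 to 0.83 for Trappc6a.

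The genes closest to Apoe did not pass the test. Apoc1, the nearest apolipoprotein gene at 3.45 kb, encodes a small apolipoprotein that slows the uptake and breakdown of lipoproteins. It ran from 1.43 to 3.14 RPKM (median 1.90) in APPPS1 and from 0.707 to 2.79 RPKM (median 1.97) in APPPS1;Apoe-/- libraries, so the groups overlapped almost wholly. Its log2 difference was -0.15, with a 95% interval of -0.54 to 0.25 (adjusted p = 0.669). The low end came from APPPS1;Apoe-/- replicate 1, at 0.707 RPKM. Without it the difference was 0.0068, so the sign of the Apoc1 estimate rests on that library.

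Tomm40, which encodes the channel of the outer mitochondrial membrane and ends 2.13 kb from Apoe on its other side, upstream of it on the same strand, was somewhat lower without passing the test. It ran from 2.39 to 3.74 RPKM (median 2.78) in APPPS1 and from 1.99 to 2.89 RPKM (median 2.38) in APPPS1;Apoe-/- libraries. The log2 difference was -0.24, with a 95% interval of -0.43 to -0.047 (adjusted p = 0.112). Without APPPS1;Apoe-/- replicate 4, the highest knockout library, it was -0.28 and just passed (adjusted p = 0.0491). Bcam, a laminin receptor gene, and Clptm1, which is known to retain GABA-A receptors in the endoplasmic reticulum, were nearly equal in both groups. Bcam was at 0.986 ± 0.157 and 1.02 ± 0.281 RPKM and Clptm1 at 6.77 ± 0.511 and 6.54 ± 1.28 RPKM (SD, n = 6 and n = 7; adjusted p = 0.925 and 0.760). Their 95% intervals were -0.22 to 0.26 and -0.30 to 0.17. The sign of the Bcam estimate turned in several fits and that of Clptm1 turned without APPPS1;Apoe-/- replicate 3.

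Among the uncalled genes of immune and other signalling, Relb came nearest to the threshold. It encodes a subunit of the noncanonical NF-kB pathway and lies 66.7 kb from Apoe. It ran from 0.660 to 0.825 RPKM (median 0.724) in APPPS1 and from 0.396 to 0.765 RPKM (median 0.497) in APPPS1;Apoe-/- libraries. Replicates 6 and 7 of the knockout group reached into the APPPS1 range, at 0.765 and 0.662 RPKM. The log2 difference was -0.26 ± 0.09 (SE; adjusted p = 0.0766), and it passed without replicate 6 (-0.31, adjusted p = 0.0322). Ppp1r37, a regulator of protein phosphatase 1, was at 3.06 ± 0.238 and 3.13 ± 0.703 RPKM (adjusted p = 0.989). Vasp, an actin regulator of cell edges and platelets, was at 0.819 ± 0.174 and 0.667 ± 0.162 RPKM (adjusted p = 0.321), and the microtubule-binding gene Eml2 at 4.70 ± 0.584 and 4.11 ± 0.699 RPKM (adjusted p = 0.276).

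Of the 7 genes of DNA repair and RNA processing Ercc2 was the only 1 to pass. Ercc1, whose product cuts damaged DNA together with XPF, was at 16.9 ± 0.329 and 17.04 ± 1.29 RPKM (SD, n = 6 and n = 7; adjusted p = 0.912). Its 3′ end overlaps that of Cd3eap by 511 bases. The log2 difference of Ercc1 was 0.012, with a 95% interval of -0.093 to 0.12, which does not reach that of Ercc2, -0.93 to -0.54. Snrpd2, a core protein of spliceosomal particles, was the highest of all 26 at 127 ± 8.18 and 124 ± 8.84 RPKM (adjusted p = 0.743). Cd3eap, a subunit gene of RNA polymerase I, was at 12.9 ± 1.21 and 14.2 ± 0.785 RPKM (adjusted p = 0.158). The neuronal splicing gene Nova2, at the far end of the set, was at 4.63 ± 0.358 and 4.67 ± 0.393 RPKM (adjusted p = 0.940), and the polyadenylation scaffold gene Sympk at 3.47 ± 0.341 and 3.33 ± 0.560 RPKM (adjusted p = 0.714).

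Of the 6 genes of mitochondria and membranes only Trappc6a passed. Opa3, a mitochondrial gene mutated in an inherited optic atrophy, was at 14.5 ± 1.12 and 16.1 ± 1.57 RPKM (log2 difference 0.15, adjusted p = 0.184; 0.057 with the alignments covariate). Rtn2, which shapes the endoplasmic reticulum, was at 6.40 ± 0.318 and 6.05 ± 0.924 RPKM (adjusted p = 0.567). Of the 5 tested genes of transcription factors and repressors Zfp296 alone passed. Mypop and Irf2bp1 differed by -0.034 and -0.094 (adjusted p = 0.882 and 0.513). The zinc finger genes Zfp180 and Zfp112, the 2 distant members, were at 13.2 ± 1.82 and 13.7 ± 1.27 RPKM and at 1.98 ± 0.247 and 2.17 ± 0.396 RPKM (adjusted p = 0.742 and 0.564). In all, the 21 uncalled neighbours lay between -0.26 and 0.15 on the log2 scale. In limma 10 of the 26 tested genes had an unadjusted p under 0.05, the 5 called ones included. The share of all genes under that limit is not given here, so no surplus can be read from this count.

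The 14 weak neighbours averaged between 0.0034 and 0.350 RPKM. They were Rsph6a, Dmpk, Six5, Gipr, Ppp1r13l, Klc3, Ckm, Mark4, Nkpd1, Apoc2, Apoc4, Nectin2, Cblc and Bcl3. When the filter on low values was left out, 4 of the 14 were called lower and 0 higher, against 2.47% and 1.69% of the 20915 genes then tested (4.16% in either direction). These were Klc3 (0.119 ± 0.0180 and 0.0422 ± 0.0237 RPKM, adjusted p = 0.00471), Ckm (0.244 ± 0.0362 and 0.0733 ± 0.0771 RPKM, adjusted p = 0.0158), the radial spoke gene Rsph6a (0.149 ± 0.0691 and 0.0281 ± 0.0249 RPKM, adjusted p = 0.0220) and Apoc2 (0.167 ± 0.103 and 0.0277 ± 0.0365 RPKM, adjusted p = 0.0469). Klc3 and Ckm, the kinesin light chain and muscle creatine kinase genes, follow Ercc2 directly on the chromosome.

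These values lie close to the limit of detection. Apoc2, whose product activates lipoprotein lipase, was under 0.001 RPKM in 4 of 7 APPPS1;Apoe-/- libraries and in 0 of 6 APPPS1 libraries, and Ckm in 2 of 7 and 0 of 6. The APPPS1;Apoe-/- libraries were also the shallower ones, and the part of depth in these calls was not tested. Apoc4 was under 0.001 RPKM in 3 APPPS1 libraries and 1 APPPS1;Apoe-/- library and reached 0.231 and 0.909 RPKM at most in the groups (adjusted p = 0.274). Nectin2, a receptor of cell junctions 17.5 kb from Apoe, was at 0.350 ± 0.0716 and 0.351 ± 0.127 RPKM (adjusted p = 0.984). Bcl3, a nuclear partner of NF-kB, was at 0.174 ± 0.0614 and 0.0797 ± 0.0644 RPKM (adjusted p = 0.130), and the ubiquitin ligase gene Cblc was listed at 0 in 12 of 13 libraries. The tau kinase gene Mark4 was at 0.146 ± 0.0463 and 0.173 ± 0.0794 RPKM (adjusted p = 0.747).

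Genes near Apoe that were not on the list were examined by position alone. Besides the listed neighbours, 8 tested genes lay within 2 Mb of Apoe, and 1 of them was called. This was Pglyrp1, a secreted peptidoglycan-binding protein gene of innate immunity 805.7 kb from Apoe, at 12.004 ± 3.33 and 5.91 ± 0.957 RPKM (log2 difference -0.94 ± 0.14, SE; adjusted p = 9.13e-04). Its groups did not overlap, and its log2 difference was -0.90 without APPPS1;Apoe-/- replicates 2 and 5 and -1.11 with the alignments covariate. Pvr, a nectin-like receptor gene 204.4 kb from Apoe on the side of Tomm40, was at 1.44 ± 0.120 and 1.90 ± 0.371 RPKM and missed the threshold (adjusted p = 0.0548). In all, 6 of the 32 tested genes within 2 Mb were called, or 18.8%.

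Calls were also frequent farther along chromosome 7. Between 2 and 30 Mb from Apoe 80 of 408 tested genes were called (19.6%), beyond 30 Mb on chromosome 7 57 of 542 (10.5%) and on other chromosomes 947 of 12266 (7.72%). With the alignments covariate 15.6% of the genes within 2 Mb were called, 7.11% of those from 2 to 30 Mb, 1.85% of those beyond and 1.28% of those on other chromosomes. Groups did not overlap for 18.8% of the genes within 2 Mb, 12% of those from 2 to 30 Mb, 3.69% of those beyond 30 Mb and 3.42% elsewhere. In narrower classes the shares did not fall steadily with distance. Genotype alone called 14.3% of 21 genes within 0.5 Mb and 27.3% of 11 from 0.5 to 2 Mb. It called 23% of 152 from 2 to 10 Mb and 17.6% of 256 from 10 to 30 Mb. With the covariate these shares were 9.52%, 27.3%, 9.21% and 5.86%, and groups did not overlap for 14.3%, 27.3%, 12.5% and 11.7%. Within 2 Mb the calls went both ways, 4 lower and 2 higher, as they did from 2 to 30 Mb, with 50 lower and 30 higher. The genes called lower from 2 to 30 Mb included Tyrobp (-1.39) and Axl (-0.39), which are on the microglia marker lists described below. Siglech, Itgam, Itgax and Ctsd of those lists were called lower beyond 30 Mb. The part of cell type in these shares was not tested, and neither were the differences between them.

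**Figure D4:**
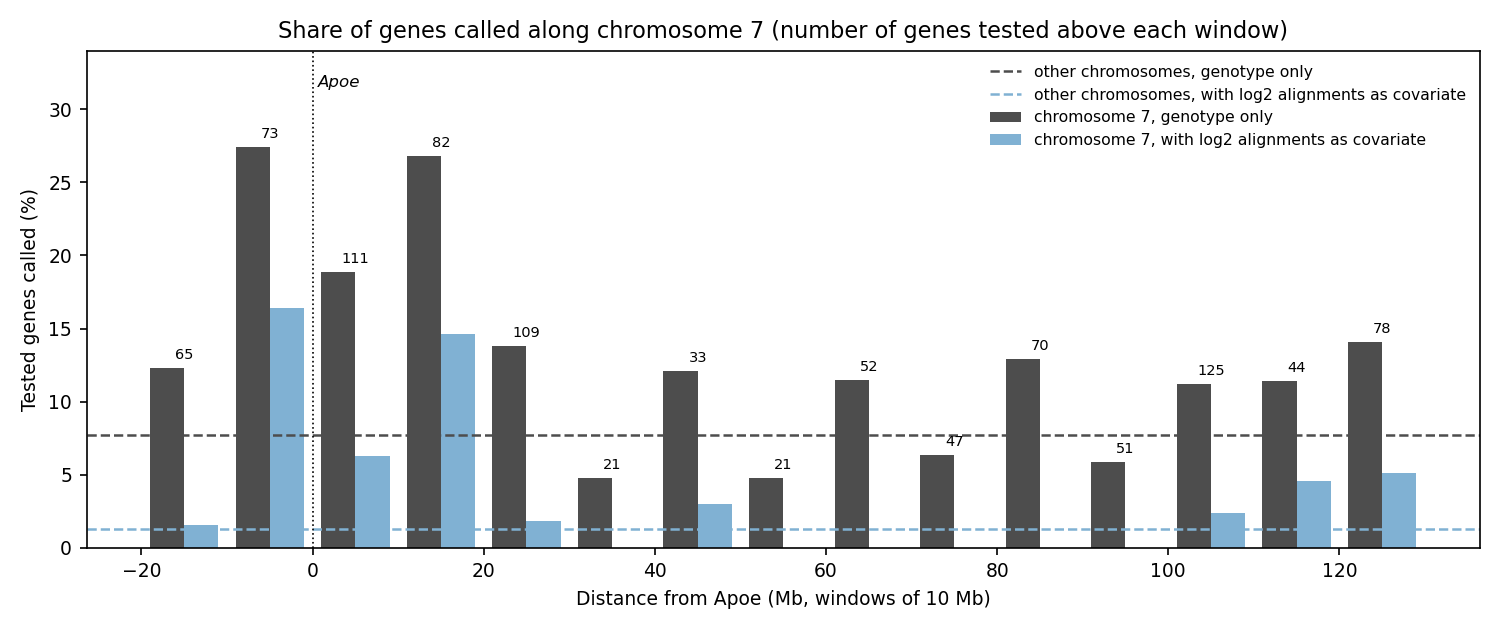
Percentage of tested genes called (adjusted p under 0.05) in windows of 10 Mb along chromosome 7, by distance from Apoe in Mb, with genotype only (grey bars) and with log2 alignments as a covariate (blue bars). Numbers above the windows give the genes tested and dashed lines the share on other chromosomes, 7.72% and 1.28%. The windows from -10 to 0 and from 10 to 20 Mb are highest, at 27.4% and 26.8%.

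Genes outside the set that work with a neighbour were called about as often as all genes: over 7 lists 7 of 91 genes were called (7.69%), beside 8.23% of all genes tested. The lists were not restricted to other chromosomes: the called gene Snrpn lies on chromosome 7, 40.3 Mb from Apoe. Of 17 tested genes of the Rel and NF-kB pathway besides Relb, limma called 0, with 3 under an unadjusted p of 0.05. Of 11 genes of mitochondrial protein import besides Tomm40 limma called 0, again with 3 under an unadjusted p of 0.05. Of 20 nucleotide excision repair genes besides Ercc1 and Ercc2, 0 were called by limma and 2 had an unadjusted p under 0.05. The share of all genes under an unadjusted p of 0.05 is not given here. Of 15 genes of the SMN complex and Sm proteins outside the set, 2 were higher and 1 lower. The Sm protein gene Snrpd1 rose from 42.5 ± 3.71 to 57.0 ± 4.02 RPKM (log2 difference 0.42, adjusted p = 7.78e-04), and Snrpn rose as well (0.20, adjusted p = 0.0388), whereas Strap fell (-0.35, adjusted p = 0.0189). Of 10 partners of Vasp in actin assembly, 2 fell: Apbb1ip, an adaptor of leukocytes and microglia (-0.53, adjusted p = 0.00466), and the focal adhesion gene Zyx (-0.26, adjusted p = 0.00795). Of 9 nectin and related adhesion genes the synaptic adhesion gene Cadm3 fell (-0.27, adjusted p = 0.0245). Of 9 genes in the list of apolipoproteins outside the cluster Apobec1, the enzyme that edits apolipoprotein B RNA, fell (-0.48, adjusted p = 0.00485). With the alignments covariate Snrpd1 stayed called (0.39, adjusted p = 0.0282) and Snrpn, Strap, Apbb1ip, Zyx, Cadm3 and Apobec1 missed the threshold (adjusted p = 0.146, 0.105, 0.0695, 0.0694, 0.163 and 0.0521).

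Of the cell type markers, those of microglia were lower without Apoe. Of 18 microglia markers 14 were lower and 0 higher, beside 4.74% and 3.48% of all genes, and their summed level ran from 1101 to 1313 RPKM in APPPS1 and from 418 to 882 RPKM in APPPS1;Apoe-/- libraries; no marker was at 0 in all libraries. In a bulk sample fewer cells of a type and less RNA per cell cannot be told apart. The microglia median was -0.61. Without APPPS1;Apoe-/- replicates 2 and 5, whose summed levels were 418 and 482 RPKM, it was -0.36 with 13 markers lower, and with the alignments covariate 2 were lower, beside 0.989% of all genes. Of 18 plaque microglia markers, Apoe among them, 16 were lower (median -0.84), 15 without the 2 libraries and 8 with the covariate. The part of microglia in the differences of Ercc2, Fbxo46, Dmwd, Trappc6a and Zfp296 was not tested.

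The other marker lists held fewer calls than the microglia lists in the main fit, and their counts differed between the fits. Of all genes tested, 4.74% were lower and 3.48% higher with all 13 libraries. These shares were 3.3% and 1.78% without the 2 libraries and 0.989% and 0.525% with the covariate. Of 12 astrocyte markers 4 were lower and 2 higher, but 2 and 1 without the 2 libraries and 1 and 0 with the covariate. Of 12 oligodendrocyte markers 4 were higher, 1 without the 2 libraries and 0 with the covariate. Of 12 neuron markers 1 was lower and of 3 tested muscle markers 1, and none of either was called by limma in the other 2 fits. Of 10 endothelial markers 2 were higher; without the 2 libraries 2 were higher and 1 lower, and with the covariate 0 were called. Of 11 striatal markers 1 was higher, 0 without the 2 libraries and 3 with the covariate. The part of these cell types in the differences of the neighbours was not tested.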

How the data were processed

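The authors deposited RPKM values per gene in 1 table for 13 cortex libraries, with another column, the number of alignments per library, per the file headers; the genotype named in the table was that of the label for 13 of 13. Per the labels' protocols RNA came from flash-frozen cortex by Trizol, with libraries from Clontech SMARTer, and per the submitters' processing notes Partek and mm10 were used. For the aligner, counting rule and strand use: not given in the sources used here. The RPKM come without a sampling error, so precision rests on the spread between libraries, which had 18455493 to 77005806 alignments.

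The 13343 genes whose mean reached 0.5 RPKM were tested as log2(RPKM + 0.5) with limma 3.58.1 in R 4.3.3 (lmFit, eBayes with a mean-variance trend, genotype only, two-sided, Benjamini-Hochberg over all genes, called at an adjusted p under 0.05). Intervals are limma's at 95%. The neighbours, gene lists, other settings and tests were chosen with earlier results of these data known, as were the upstream motifs. Named were every called neighbour, the 8 nearest on each side, the 6 highest uncalled ones, all weak ones, up to 4 called genes per list and up to 8 called genes within 2 Mb; some values of other neighbours are added. Not every gene the rule names in the marker lists is described. Positions are from GENCODE mouse release 21 (mm10): 20411 symbols were found by name and 252 through a synonym, and 308 were not placed. Distances run between the nearest gene ends. The fit was tested on simulated data for the comparison of APPPS1;Apoe-/- with APPPS1 on 13343 genes, 200 of them changed: it called 83.6% of the genes given a log2 change of 0.5 and 98.5% of those given 1. Alternatives were other pseudocounts (0.1 and 1), filters, scalings, variance models, library weights, a sex score and the alignments as covariates, and leaving out libraries. Python 3.11.15 with pandas 2.3.3, scipy 1.17.1 and matplotlib 3.10.9 did the rest.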

Additional observations from a re-analysis of the deposited data

Results flagged for a closer look

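In 4 of 54 sets of libraries (Apoe and the 26 tested neighbours in each group) 1 library stood apart from the others by Dixon's criterion, which chance meets in about 1 of 20. Zfp296 was at 1.83 RPKM in APPPS1;Apoe-/- replicate 7, against 1.23 to 1.43 RPKM in the other knockout libraries; without it the difference was 0.25 and still called (adjusted p = 0.0382). Ercc1 was at 19.8 RPKM in APPPS1;Apoe-/- replicate 5, the shallowest library, against 16.1 to 17.2 RPKM in the others; without it the log2 difference was -0.025. Irf2bp1 was at 1.75 RPKM in APPPS1;Apoe-/- replicate 4, against 1.16 to 1.42 RPKM. Rtn2 was at 5.78 RPKM in APPPS1 replicate 6, against 6.42 to 6.72 RPKM.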

How the results depend on the processing

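Over 26 other settings Dmwd, Fbxo46, Ercc2 and Trappc6a kept their direction and their call, and Zfp296 kept its direction. Zfp296 was not called with the alignments covariate, with or without APPPS1;Apoe-/- replicates 2 and 5 (the low-App libraries), nor without APPPS1 replicate 1 or 6, so that 1 neighbour was then called higher instead of 2. The number of neighbours called higher was between 1 and 2 when each library was left out in turn, and that called lower between 3 and 4. Of 467 values of 18 named neighbours under these settings, 23 changed sign, none of them called: Ercc1 (-0.0043 with quantile normalization, -0.0064 with library weights, -0.046 with the covariate, -0.022 without both low-App libraries and -0.038 with both), Ppp1r37 (-0.15 with the covariate and -0.11 with both), Bcam (-0.12 and -0.12) and Snrpd2 (0.00090 with both). Leaving out single libraries gave -0.025 to 0.025 for Ercc1, -0.040 to 0.11 for Ppp1r37, -0.11 to 0.027 for Clptm1, -0.23 to 0.0068 for Apoc1 and -0.047 to 0.088 for Bcam. With the covariate 29 genes were called from 2 to 30 Mb of Apoe, 10 beyond 30 Mb and 157 on other chromosomes. Without both low-App libraries these were 35 beyond 30 Mb and 568 on other chromosomes, and with both changes 31, 13 and 231. The cause was not tested. No paired analysis was possible because the labels give no replicate numbers shared between the groups. Depth limits what can be said of the 14 weak neighbours.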

Other observations

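The extremes of the neighbours were not spread evenly over the knockout libraries. APPPS1;Apoe-/- replicate 3 was the lowest of its group for 11 of the 26 tested neighbours, among them Dmwd, Fbxo46, Ercc2, Trappc6a, Gemin7 and Clptm1, and the highest for 1, Zfp112. It was the deepest library of that group, with 34538031 alignments. Each of the other 6 knockout libraries was lowest for 2 or 3 of the 26. Trappc6a was thus nearest to the APPPS1 range in the library in which Dmwd, Fbxo46 and Ercc2 were farthest from it. This was noticed after the values were seen and was not tested. How often replicate 3 was lowest over all genes tested is not given here, so the count cannot be read as particular to the neighbours. A sex score was taken as the log2 level of Xist less that of Y-linked genes. It was -3.52 in APPPS1 replicate 2 and -3.58 and -3.68 in APPPS1;Apoe-/- replicates 1 and 3. In the other libraries the score was positive, so each group held both signs. With the score as a covariate the same 5 neighbours were called.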
